A study of Homo sapiens with 9 samples.

Results

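The 27 genes described here make cholesterol, sense its level in the cell, or move, store and export it. They were taken by name: rows of the deposited table of normalized gene counts whose Ensembl identifiers map to 27 fixed symbols. All 27 were found among the 61093 listed genes, and all 27 reached 10 normalized counts in 3 or more of the 9 libraries, the filter that left 17492 genes to test. The labels name HepG2, an established human line from a liver tumour, as the source of RNA for 9 sequencing libraries. There were 3 libraries of cells given SKF-96365, named in the series text as a TRPV2 inhibitor, and 3 of cells given 2-APB, named there as a TRPV2 agonist. TRPV2 is a calcium-permeable channel. The other 3 were controls, with no agent in the treatment field. Sample titles of the 2-APB group read ABP and their descriptions read TRPV2, so the group was set by the treatment field. No dose, time, vehicle or day is given, nor whether replicate libraries came from different cultures, so every p-value below measures only the spread between these libraries.

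Cholesterol is built from acetyl-CoA through mevalonate, squalene and lanosterol. The last steps trim lanosterol to cholesterol in the endoplasmic reticulum. The pathway is run by feedback: when membrane sterol is scarce, SCAP carries the transcription factor SREBP2 (gene SREBF2) to the Golgi, where it is cut and released to switch on the synthesis genes, and when sterol is plentiful INSIG proteins hold the SCAP complex back. A second arm senses oxidized sterols through the liver X receptors, which switch on the exporter ABCA1 and MYLIP, a ubiquitin ligase that marks lipoprotein receptors for degradation. Liver cells are a main site of both arms in the body.

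Regulatory sequence ahead of the genes is shown first. INSIG1 and HMGCS1, which varied most between libraries, are known targets of SREBP2, whose activity was not measured here. A RefSeq table (GRCh38.p14) gave promoters for 24 of the 27 genes, and the 250 bases before each annotated start were searched on both strands. Only SREBF2 held the sterol regulatory element core TCACNCCAC, 1 of 24 genes (4.17%), against 1.17% of the 11400 tested genes with a promoter in the table. The shorter core CACNCCAC, chosen after the first search was seen, was found in 5 of 24, namely IDI1, SC5D, SREBF2, INSIG1 and ABCA1 (20.8%, against 6.58%). It lies within TCACNCCAC, so the SREBF2 match is counted in both. The Y box CCAAT was found in 18 of 24 (75%, against 40.7%), the GC box GGGCGG in 23 of 24 (95.8%, against 72.8%) and the E box CACGTG in 4 of 24 (16.7%, against 10.9%). The shares describe exact matches in these windows, and elements with other letters or farther from the start were not searched for. The 4 windows below belong to the gene with the full core, the sensing and synthesis genes with the widest range between libraries, and the exporter gene. Capitals mark matches to TCACNCCAC, CACNCCAC, CCAAT or CACGTG on either strand, and each window runs 5′ to 3′ and ends at the base before the start.
SREBF2: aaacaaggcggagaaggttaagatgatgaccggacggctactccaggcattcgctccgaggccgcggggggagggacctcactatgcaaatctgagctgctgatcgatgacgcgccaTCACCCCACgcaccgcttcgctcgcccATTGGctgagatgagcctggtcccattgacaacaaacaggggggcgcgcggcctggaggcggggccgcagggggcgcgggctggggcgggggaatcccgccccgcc
INSIG1: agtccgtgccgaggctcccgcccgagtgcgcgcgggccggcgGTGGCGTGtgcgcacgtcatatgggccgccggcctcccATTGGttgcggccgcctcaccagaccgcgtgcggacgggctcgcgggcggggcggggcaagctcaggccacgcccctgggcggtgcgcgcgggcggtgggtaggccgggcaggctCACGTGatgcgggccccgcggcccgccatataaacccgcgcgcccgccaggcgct
HMGCS1: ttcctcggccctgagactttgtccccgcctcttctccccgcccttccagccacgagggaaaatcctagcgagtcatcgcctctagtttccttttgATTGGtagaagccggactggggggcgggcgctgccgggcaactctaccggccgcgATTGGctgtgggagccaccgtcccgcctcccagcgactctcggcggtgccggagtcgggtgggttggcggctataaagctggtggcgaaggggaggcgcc
ABCA1: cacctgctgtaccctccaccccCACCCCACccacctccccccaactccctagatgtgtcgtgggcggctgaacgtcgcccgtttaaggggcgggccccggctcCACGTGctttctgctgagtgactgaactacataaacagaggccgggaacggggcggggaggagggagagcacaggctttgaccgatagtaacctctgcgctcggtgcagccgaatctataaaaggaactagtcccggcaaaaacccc
The windows lie at chr22:41832855-41833104 (SREBF2, plus strand), chr7:155297628-155297877 (INSIG1, plus strand), chr5:43313413-43313662 (HMGCS1, minus strand, 1 of 2 listed starts) and chr9:104928156-104928405 (ABCA1, minus strand). In the SREBF2 window the core TCACCCCAC ran from base -133 to base -125 and a Y box from -106 to -102, counted from the start. INSIG1 held a Y box from -170 to -166, and HMGCS1 held a pair of them.

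Libraries did not sort by their labels, which bears on every comparison below. Recovered depth was 14786059 to 19026545 reads per library. For the 27 sterol genes, SKF-96365 2 and SKF-96365 3 differed by a median of 0.050 on the log2 scale and 2-APB 1 and 2-APB 2 by 0.053, while SKF-96365 1 differed from SKF-96365 2 by 0.50 and 2-APB 3 from 2-APB 1 by 0.58. Across labels, SKF-96365 2 and control 3 differed by only 0.10, less than control 3 differed from control 1 (0.47) or control 2 (0.23). Reads of the genes that passed the filter were compared between libraries by chi-square. Its ratio to its degrees of freedom would be close to 1 if pairs differed only by counting. The ratio was 2.11 between 2-APB 1 and 2-APB 2 and 3.55 between SKF-96365 2 and control 3. Neither pair therefore matched within counting error. The hepatocyte markers checked were nearly absent: 1 of 10, SERPINA1, passed the filter. HNF4A reached at most 2.58 normalized counts in any library, ALB at most 11.8, AFP at most 8.87 and APOA1 at most 1.75. These low levels stand beside a label that names a liver tumour line, and the identity of the cells was not tested. The 10 hepatocyte markers summed to 332 to 422 with SKF-96365, 267 to 347 with 2-APB and 219 to 554 in control. Most of each of these sums was SERPINA1, at 308 to 412, 255 to 311 and 207 to 523 in the same order. All 6 mesenchymal markers passed the filter, with sums of 39015 to 45266, 34585 to 48716 and 37459 to 40138 in the same order. Most of each sum was VIM, which was highest in 2-APB 3 (44039), as was COL1A2, with few reads (25.6). FN1 (2160) and CDH2 (1253) had their lowest values of the 9 libraries there, and ZEB1 (1096) and COL1A1 (142) lay between their extremes. The 6 proliferation genes summed to 22772 to 26657, 29842 to 34121 and 21639 to 44217, and the lowest 3 libraries were control 3 (21639), SKF-96365 2 (22772) and SKF-96365 3 (23580). In RNA from whole cultures, fewer cells of a type and less RNA per cell cannot be told apart, and the part of these markers in the sterol results was not tested.

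Within every labelled group the sterol genes as a set differed between single libraries. In 2-APB 3, 25 of the 27 genes were below their own 9-library mean, against 48.8% of all tested genes, and 19 of the 27 (70.4%) had their lowest value of all there, against 12.7% of all tested genes. SKF-96365 1 had 24 of 27 below their mean and control 1 had 19 of 27. Measured as log2(normalized count + 1) minus each gene's 9-library mean, the average over the 27 genes was -0.30, 0.23 and 0.27 in SKF-96365 1 to 3, 0.051, 0.050 and -0.52 in 2-APB 1 to 3, and -0.15, 0.20 and 0.17 in control 1 to 3. Each labelled group therefore held 1 library below 0 and 2 above it, and the groups overlapped. The same 3 libraries, SKF-96365 1, 2-APB 3 and control 1, were the lowest 3 of 9 for 12 genes (44.4%, against 7.63% of all tested genes). These were HMGCS1, MVD, IDI1, FDPS, FDFT1, SQLE, LSS, MSMO1, SC5D, DHCR7, SREBF2 and INSIG1. SKF-96365 2, SKF-96365 3 and control 3 were the highest 3 for 9 genes (33.3%, against 16.4% of all tested genes), namely HMGCS1, FDFT1, MSMO1, DHCR7, SREBF2, SCAP, INSIG1, INSIG2 and ABCA1. The summed proliferation genes were lowest in these same 3 libraries. Both trios were picked after the values were seen, so these counts are a description with no test.

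**Figure D1:**
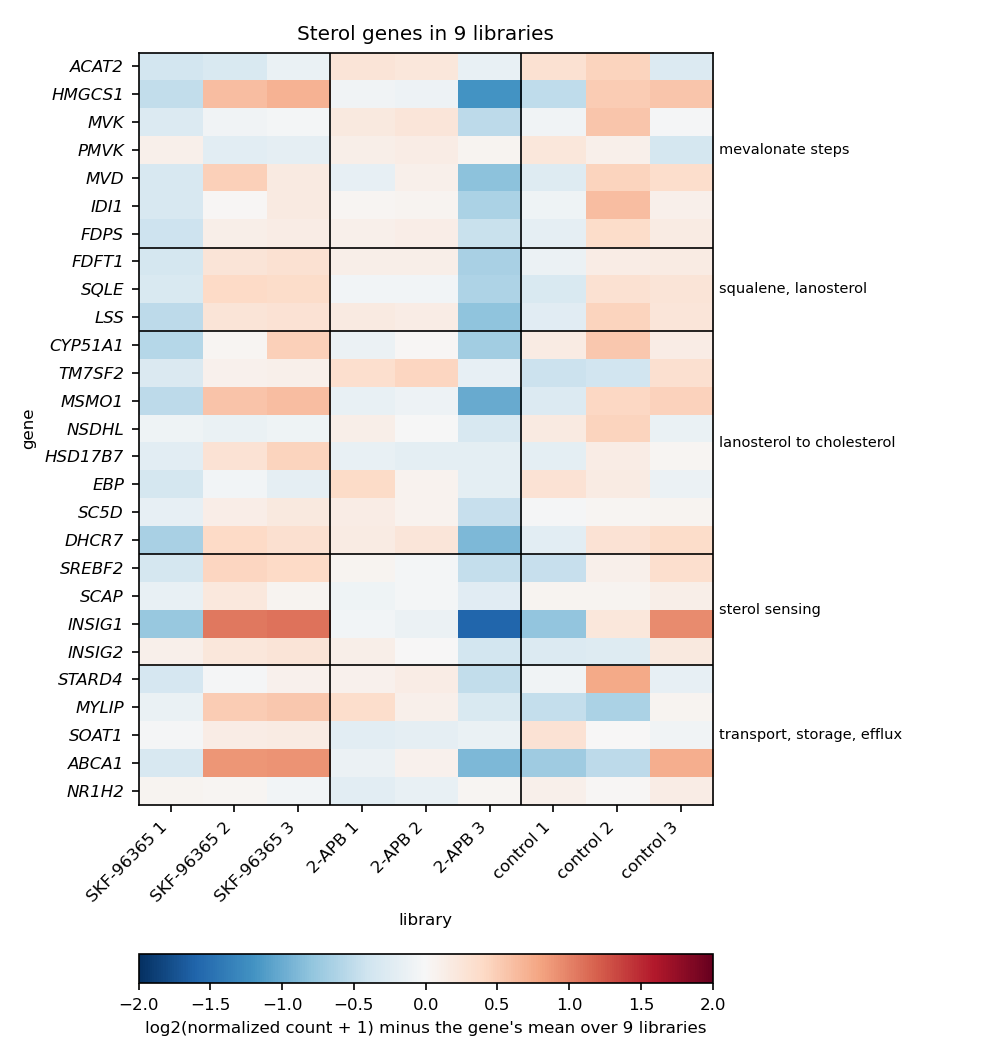
Heat map of the 27 sterol genes (rows, grouped by role) in the 9 libraries (columns, 3 per group); colour is log2(normalized count + 1) minus the gene's mean over the 9 libraries, red above and blue below. The blue columns are SKF-96365 1, 2-APB 3 and, more weakly, control 1, whose averages over the genes were -0.30, -0.52 and -0.15.

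**Figure D2:**
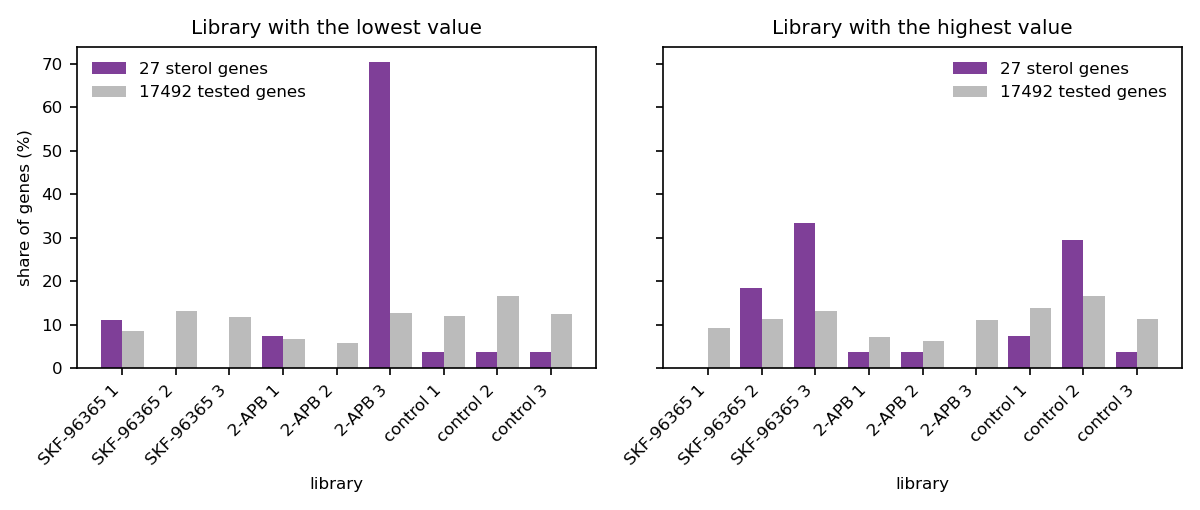
Share of genes (%) whose lowest (left) or highest (right) value fell in each library, for the 27 sterol genes (purple) and the 17492 tested genes (grey). The 2-APB 3 bar stands at 70.4% of the sterol genes on the left, against 12.7% of tested genes.

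The range between libraries differed from gene to gene. The ratio of the highest to the lowest library was 6.39 for INSIG1, 3.73 for HMGCS1, 3.46 for ABCA1 and 3.09 for MSMO1. It was 1.28 for NR1H2, 1.35 for SCAP and 1.40 for SOAT1. The feedback protein INSIG1 covered the widest range of the 27, while its partner SCAP stayed within one of the narrowest. Per kilobase of merged exon (GENCODE 29, since the authors' annotation is not given in the sources used here), mean levels ran from 28.3 normalized counts for MYLIP to 520 for INSIG1. INSIG1 stood at the 92.7th percentile of the 16985 tested genes with a length, FDPS at the 90.4th, FDFT1 at the 90.3rd and MYLIP at the 33.5th. Within a group, the coefficient of variation (SD over mean) had a median over the 27 genes of 20.2% with SKF-96365, 21.5% with 2-APB and 21.9% in control. It reached 54.5% and 47.8% for INSIG1 in the treated groups and 58.9% for ABCA1 in control.

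Among the 7 genes of the mevalonate steps, HMGCS1 had the highest mean normalized count. HMGCS1 (ENSG00000112972) encodes the synthase that makes HMG-CoA. It stood at 1106, 2372 and 2520 normalized counts in SKF-96365 1 to 3, at 1486, 1445 and 675 in 2-APB 1 to 3, and at 1088, 2204 and 2278 in control 1 to 3. The 2-APB libraries were all below control 2 and control 3, but control 1 lay inside their range. Means were 1999 ± 777 with SKF-96365, 1202 ± 457 with 2-APB and 1857 ± 667 in control (SD, n = 3 each). The log2 difference was 0.092 (SE 0.41) for SKF-96365 minus control and -0.64 (SE 0.41) for 2-APB minus control, with limma adjusted p of 0.954 and 0.9995. ACAT2 (ENSG00000120437), the cytosolic thiolase that joins acetyl-CoA units, ran differently. It stood at 680, 713 and 802 in SKF-96365 1 to 3, at 1056, 1028 and 799 in 2-APB 1 to 3, and at 1087, 1198 and 727 in control 1 to 3. Here control 3 was low rather than high, and only it lay within the SKF-96365 range. The log2 difference was -0.43 (SE 0.19) for SKF-96365 minus control, the largest of these 7 genes, with an unadjusted p of 0.0480 and a limma adjusted p of 0.789. For 2-APB minus control it was -0.043 (SE 0.19). Exons of ACAT2 overlap those of SOD2 and TCP1 on the other strand in GENCODE 29. The strand setting of the counting is not given, so reads of these genes may be shared. An overlap on the other strand was found for 10 of the 27 genes, ACAT2 included. Others were HMGCS1 (703 bases), FDPS (693 bases), IDI1 (643 bases), MVK (306 bases), SREBF2 (280 bases) and FDFT1 (217 bases).

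Of the other 5 mevalonate genes, 4 had their lowest value in 2-APB 3. IDI1, the isomerase of the isoprene building blocks, and FDPS, which joins these blocks into farnesyl diphosphate, each had their lowest value in 2-APB 3 (881 and 1122) and their highest in control 2 (2085 and 1973). MVK, mevalonate kinase, did too, at 206 in 2-APB 3 and 436 in control 2. MVD, the decarboxylase that follows, ran from 112 in 2-APB 3 to 278 in SKF-96365 2. PMVK, the second kinase of the route, had a narrow range of 240 in control 3 to 359 in control 1. It was the 1 gene of the 27 for which SKF-96365 2, SKF-96365 3 and control 3 were the lowest 3 libraries. GENCODE 29 names 8 pseudogenes of FDPS, and reads from such copies cannot be separated here.

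FDFT1, SQLE and LSS carry the pathway from farnesyl diphosphate to lanosterol. All 3 were lowest in 2-APB 3 and next lowest in SKF-96365 1 or control 1. FDFT1 (ENSG00000079459), squalene synthase, stood at 1647, 2516 and 2597 in SKF-96365 1 to 3, at 2299, 2296 and 1347 in 2-APB 1 to 3, and at 1953, 2353 and 2379 in control 1 to 3. SQLE (ENSG00000104549), the epoxidase that is a rate-limiting oxygen-dependent step, stood at 1238, 2017 and 1973, then 1470, 1469 and 1002, and 1237, 1894 and 1828 in the same order. LSS (ENSG00000160285), which closes the rings to give lanosterol, stood at 1156, 1986 and 2039, then 1879, 1840 and 956, and 1431, 2276 and 1979. For these enzymes the groups overlapped in every comparison. The log2 differences for SKF-96365 minus control were -0.0075 (SE 0.23) for FDFT1, 0.067 (SE 0.24) for SQLE and -0.15 (SE 0.30) for LSS. For 2-APB minus control they were -0.21 (SE 0.23), -0.33 (SE 0.24) and -0.32 (SE 0.30), and limma adjusted p were 0.884 to 0.9995.

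Of the 8 genes from lanosterol to cholesterol, DHCR7 had the highest mean and MSMO1 the widest range. DHCR7 (ENSG00000172893), the reductase of the last step of one branch, stood at 677, 1387 and 1317 in SKF-96365 1 to 3, at 1180, 1244 and 566 in 2-APB 1 to 3, and at 914, 1285 and 1361 in control 1 to 3. MSMO1 (ENSG00000052802), which removes methyl groups from the ring, stood at 675, 1432 and 1482, then 877, 900 and 479, and 800, 1294 and 1332 in the same order. In both genes SKF-96365 1, 2-APB 3 and control 1 were the low libraries of their groups. The log2 difference of MSMO1 was -0.62 (SE 0.34, 95% interval -1.39 to 0.14) for 2-APB minus control and 0.019 (SE 0.34) for SKF-96365 minus control. That of DHCR7 was -0.31 (SE 0.34) and -0.12 (SE 0.34), with limma adjusted p from 0.921 to 0.9995 for both genes. EBP (ENSG00000147155), the sterol isomerase, stood at 224, 277 and 255 in SKF-96365 1 to 3, at 375, 303 and 251 in 2-APB 1 to 3, and at 353, 323 and 264 in control 1 to 3. Its control 3 value was low, as for ACAT2, and the log2 difference was -0.31 (SE 0.18) for SKF-96365 minus control and -0.024 (SE 0.18) for 2-APB minus control, with limma adjusted p of 0.789 and 0.9995.

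CYP51A1, the demethylase that first acts on lanosterol, was between 111 and 185 in the 2-APB libraries and between 200 and 263 in control, so these groups did not overlap. Its log2 difference was -0.54 (SE 0.28) with an unadjusted p of 0.0805 and a limma adjusted p of 0.9995. Exons of CYP51A1 overlap 3 other genes in GENCODE 29, and 3 pseudogenes carry its name. HSD17B7, a ketoreductase of this route, was nearly constant with 2-APB, at 272 to 282. It ran from 269 to 425 with SKF-96365 and from 271 to 345 in control. GENCODE 29 names 2 pseudogenes of HSD17B7, and reads from such copies cannot be separated here. TM7SF2, a reductase of the double bond left by CYP51A1, was lowest in control 1 (118) and highest in 2-APB 2 (214). NSDHL, which works with MSMO1 in demethylation, ran from 477 in 2-APB 3 to 817 in control 2, and SC5D, a desaturase, from 392 in 2-APB 3 to 620 in SKF-96365 3.

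The 4 sensing genes spanned the widest and one of the narrowest ranges. INSIG1 (ENSG00000186480) stood at 948, 3322 and 3389 normalized counts in SKF-96365 1 to 3, at 1537, 1481 and 530 in 2-APB 1 to 3, and at 926, 1869 and 3091 in control 1 to 3. SKF-96365 2, SKF-96365 3 and control 3 were above all the others, and 2-APB 3 was below all the others. Means were 2553 ± 1391 with SKF-96365, 1183 ± 566 with 2-APB and 1962 ± 1085 in control (SD, n = 3 each). The log2 difference was 0.33 (SE 0.59, 95% interval -0.98 to 1.64) for SKF-96365 minus control and -0.72 (SE 0.59, 95% interval -2.03 to 0.60) for 2-APB minus control. Limma adjusted p were 0.872 and 0.9995, and all of these intervals hold 0. INSIG2, its relative in the same membrane, ran from 388 in 2-APB 3 to 598 in SKF-96365 3, with log2 differences of 0.31 (SE 0.17) and 0.031 (SE 0.17). SREBF2 (ENSG00000198911), the source of SREBP2, stood at 1767, 3042 and 2971 in SKF-96365 1 to 3, at 2344, 2196 and 1616 in 2-APB 1 to 3, and at 1637, 2407 and 2830 in control 1 to 3. Its 2 lowest libraries were 2-APB 3 and control 1, and the log2 difference was 0.17 (SE 0.26) and -0.14 (SE 0.26), with limma adjusted p of 0.848 and 0.9995. SCAP was between 1378 and 1571 with 2-APB and between 1667 and 1745 in control, which did not overlap. The log2 difference of SCAP was -0.19 (SE 0.12), with an unadjusted p of 0.131.

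**Figure D3:**
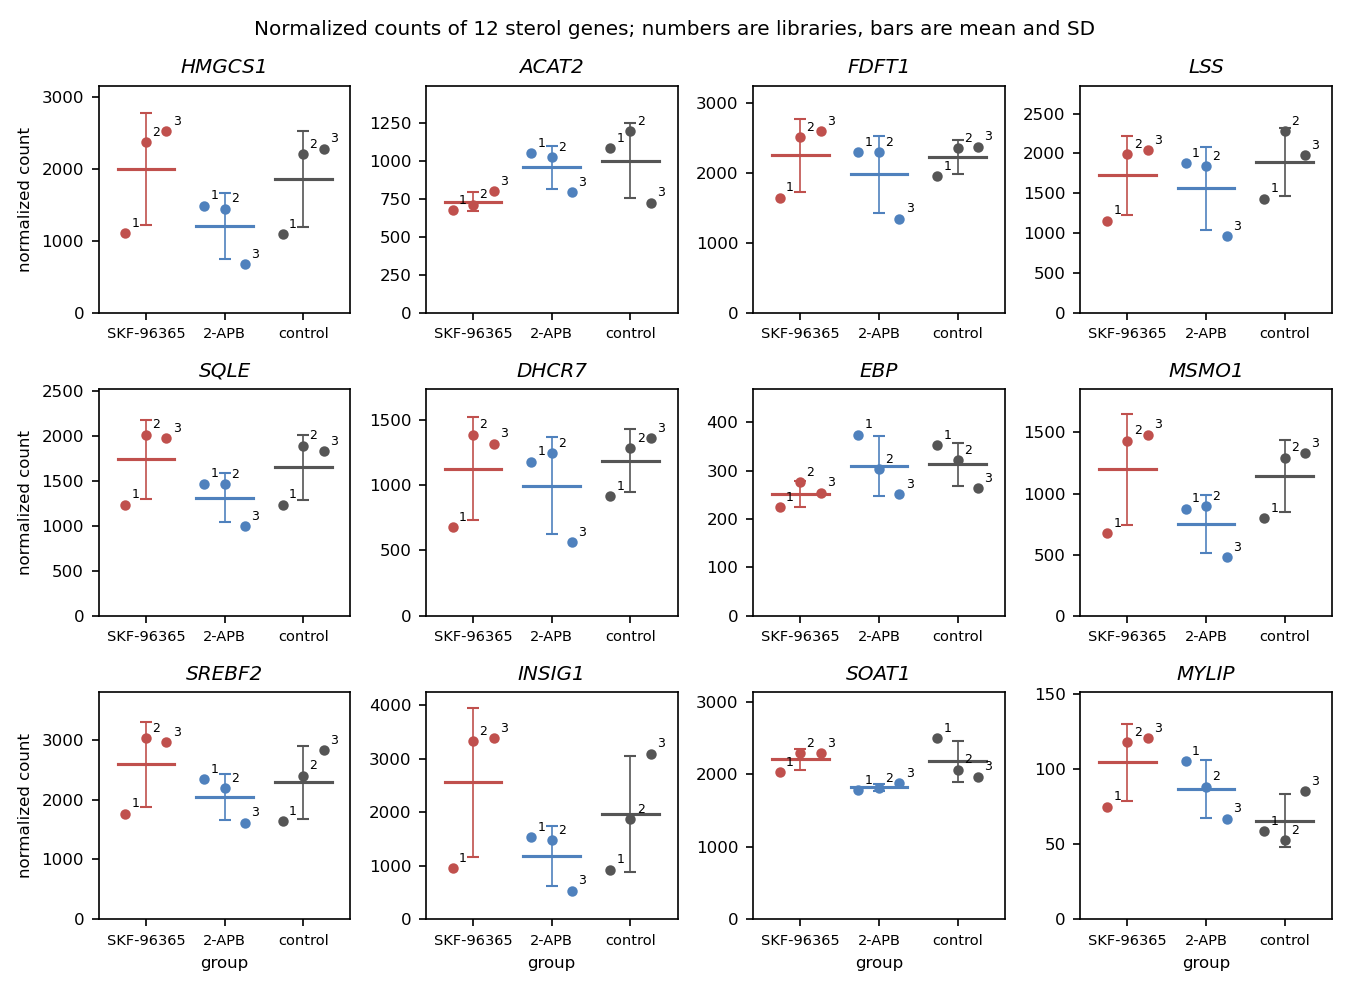
Normalized counts of the 12 genes chosen by mean and by difference, with 1 point per library (numbered 1 to 3), a bar at the group mean and an error bar of 1 SD (n = 3) for SKF-96365, 2-APB and control. SKF-96365 1, 2-APB 3 and control 1 are the low points of their groups for HMGCS1, FDFT1, LSS, SQLE, DHCR7, MSMO1, SREBF2 and INSIG1, while ACAT2, EBP, SOAT1 and MYLIP have another order in control.

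Among the 5 genes that move, store and export sterol or sense oxidized sterol, ABCA1, the exporter, had the same 3 highest libraries and the same lowest library as INSIG1. It stood at 1055, 2428 and 2458 in SKF-96365 1 to 3, at 1211, 1396 and 710 in 2-APB 1 to 3, and at 805, 919 and 2188 in control 1 to 3. The log2 difference was 0.65 (SE 0.43) and -0.14 (SE 0.43), with limma adjusted p of 0.789 and 0.9995. This gene was singled out after its values were seen. MYLIP (ENSG00000007944), the receptor-degrading ligase, had few reads, at 75.1, 118 and 121 in SKF-96365 1 to 3, 105, 88.5 and 67.1 in 2-APB 1 to 3, and 58.9, 52.7 and 85.6 in control 1 to 3. Of the control libraries, only control 3 lay inside the SKF-96365 range. Means were 105 ± 25.7 with SKF-96365, 86.9 ± 19.1 with 2-APB and 65.7 ± 17.4 in control (SD, n = 3 each). The log2 difference for SKF-96365 minus control was 0.66 (SE 0.28, 95% interval 0.049 to 1.28), the largest of the 27 genes, with an unadjusted p of 0.0370 and a limma adjusted p of 0.789. For 2-APB minus control it was 0.40 (SE 0.28). SOAT1 (ENSG00000057252), which esterifies cholesterol for storage, stood at 2034, 2289 and 2299 in SKF-96365 1 to 3, at 1785, 1810 and 1875 in 2-APB 1 to 3, and at 2507, 2065 and 1969 in control 1 to 3. All 2-APB libraries lay below all libraries of both other groups, the nearest being control 3. Means were 2207 ± 150 with SKF-96365, 1823 ± 46.9 with 2-APB and 2180 ± 287 in control (SD, n = 3 each). The log2 difference was -0.25 (SE 0.12, 95% interval -0.51 to 0.012) for 2-APB minus control and -0.27 (SE 0.12) for 2-APB minus SKF-96365, with limma adjusted p of 0.9995 and 0.684. STARD4, a sterol carrier of the cytosol, was high in control 2 alone, at 2807, against 1176 to 1821 in the other 8 libraries. NR1H2, the liver X receptor beta, stayed between 690 and 882.

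With SKF-96365 against control, 0 of the 27 genes passed limma's test at an adjusted p under 0.05, as did 0% of the 17492 tested genes. At an unadjusted p under 0.05 there were 2 of the 27, ACAT2 and MYLIP, against 4% of all tested genes. The log2 difference was negative for 15 and positive for 12 genes (50.5% of all tested genes were negative), with a median of -0.036 against -0.0043 over all tested genes. Without SKF-96365 1 the median was 0.13 and 9 genes were negative, and without control 1 it was -0.13 and 19 were negative, so its sign differed with the library left out. On 8 libraries edgeR and DESeq2 each called 0 of 27, with 1 at an unadjusted p under 0.05. Groups overlapped for all 27 genes, where 3.26% of tested genes had all SKF-96365 libraries above control, 2.94% had them all below, and 6.2% did not overlap in either direction. Control 3 and SKF-96365 1 each resembled libraries of another group. So did 2-APB 3 and control 1, which were kept. Over tested genes 2-APB 3 correlated at 0.988 with SKF-96365 1, against 0.980 and 0.981 with 2-APB 1 and 2-APB 2. Control 1 correlated at 0.986 with 2-APB 3, against 0.978 and 0.961 with control 2 and control 3. Control 3 and SKF-96365 1 were left out, a choice made after the data were seen. Limma then called 4 of 27 genes (14.8%), against 4784 of 17039 tested genes (28.1%). The 4 were ABCA1 (1.51, adjusted p = 0.00409), MYLIP (1.09, adjusted p = 0.0117), INSIG2 (0.51, adjusted p = 0.0411) and ACAT2 (-0.59, adjusted p = 0.0185). Since the libraries were picked for how they sat among the groups, these p-values are too small.

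With 2-APB against control, limma again called 0 of 27 genes and 0% of tested genes. There were also 0 of 27 at an unadjusted p under 0.05, against 2.8% of tested genes, and edgeR and DESeq2 on 8 libraries called 0 too, with 0 unadjusted in each. Differences were negative for 23 of 27 genes, against 50.3% of all tested genes, with a median of -0.19 against -0.0016. The most negative synthesis genes were HMGCS1 (-0.64), MSMO1 (-0.62), CYP51A1 (-0.54) and MVD (-0.47). Without 2-APB 3 the median was -0.0067 and 15 of 27 were negative, and without control 1 it was -0.30 with 22 negative. For 3 genes, CYP51A1, SCAP and SOAT1, all 2-APB libraries lay below all control libraries, as for 3.97% of tested genes. No gene of the 27 had them all above control, as 3.61% of tested genes did, and 7.57% of tested genes did not overlap in either direction. Both comparisons use the same control libraries.

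Set directly against each other, 2-APB minus SKF-96365 had 0 of 27 genes called and 0% of tested genes. At an unadjusted p under 0.05 SOAT1 alone passed, against 7.3% of tested genes. The difference was negative for 20 of 27 genes, where 49% of tested genes were negative. Its median was -0.19, and it was -0.025 without 2-APB 3 and -0.33 without SKF-96365 1. INSIG1 had the largest difference, -1.05 (SE 0.59, 95% interval -2.36 to 0.27), with a limma adjusted p of 0.700. edgeR and DESeq2 called 0 of 27 with 0 unadjusted. SOAT1 was also the 1 gene of the 27 whose groups did not overlap, with 2-APB lower, as in 8.79% of tested genes, while 8.21% had 2-APB higher and 17% did not overlap in either direction. Without control 3 and SKF-96365 1, limma called 4 of 27 (14.8%), a share near the 13.3% of 17039 tested genes called in that fit. They were INSIG1 (-1.65, adjusted p = 0.0365), ABCA1 (-1.20, adjusted p = 0.0143), MSMO1 (-1.01, adjusted p = 0.0416) and HSD17B7 (-0.54, adjusted p = 0.0335), with the same reservation about their p-values. An F test over the 3 groups called 0 of 27 genes, as 0% of tested genes, and the smallest adjusted p over the 27 was 0.862. At an unadjusted p under 0.05 it had 0 of 27, against 4.02% of tested genes, and edgeR's F test also had 0 called and 0 unadjusted. Without control 3 and SKF-96365 1 the F test called 5 of 27 (18.5%), against 20.7% of tested genes.

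**Figure D4:**
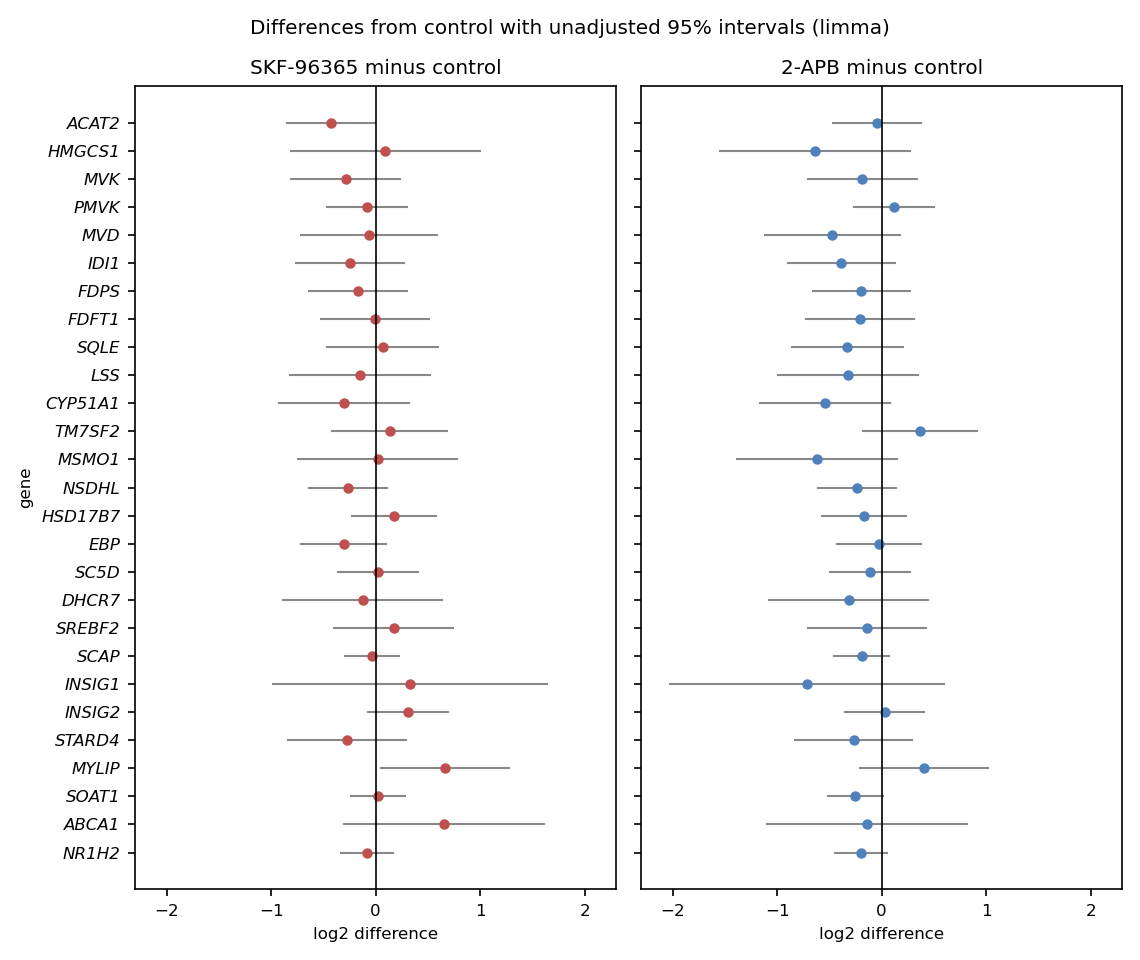
Log2 differences from control for the 27 sterol genes (points) with 95% intervals not adjusted for the number of genes (lines), from limma over all 9 libraries, for SKF-96365 (left) and 2-APB (right). Intervals are widest for INSIG1, from -0.98 to 1.64 on the left and from -2.03 to 0.60 on the right.

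A further 27 genes of sterol handling were listed from general knowledge of the pathway. Of these, 24 were tested and limma called 0 in each comparison. At an unadjusted p under 0.05, VLDLR alone passed for SKF-96365 minus control (4.17% of 24, against 4% of all tested genes). Its log2 difference was 0.50 (SE 0.17). For 2-APB minus control NPC1 and ERLIN1 passed (8.33%, against 2.8%), and for 2-APB minus SKF-96365 NPC1 alone (4.17%, against 7.3%). Median log2 differences of the 24 were 0.070, -0.031 and -0.14, against -0.0043, -0.0016 and 0.0073 over all tested genes. NPC1, which exports cholesterol from lysosomes, had the largest difference with 2-APB, and its 3 libraries were close: 4300, 4362 and 3886 in 2-APB 1 to 3, against 4601, 9114 and 12492 in control 1 to 3. With SKF-96365 it stood at 5333, 13290 and 12783. The log2 difference for 2-APB minus control was -0.95 (SE 0.39, limma adjusted p = 0.9995). LIPA, the lysosomal lipase that frees cholesterol from its esters, and SCARB1, a lipoprotein receptor, were high in the same libraries as INSIG1 and ABCA1. LIPA stood at 1676, 4174 and 4291 in SKF-96365 1 to 3, at 2395, 2472 and 1276 in 2-APB 1 to 3, and at 1898, 2609 and 3831 in control 1 to 3. SCARB1 stood at 1766, 3508 and 3606, then 2497, 2601 and 1715, and 2000, 1821 and 3368 in the same order. SREBF1, whose protein drives fatty acid genes, was high with 2-APB 1 and 2-APB 2 as well, at 4514 and 4254, with 2339 in 2-APB 3. It stood at 2281, 4230 and 3707 in SKF-96365 1 to 3 and at 2488, 2870 and 4195 in control 1 to 3. LIPA, SCARB1 and SREBF1 were picked after their values were seen. The other genes named for size of difference had few reads. SOAT2, the relative of SOAT1 that also esterifies cholesterol, had 3.49 to 7.94 normalized counts with SKF-96365 and 4.21 to 20.3 in control. CYP27A1, a sterol hydroxylase, had at most 14.6 in any library and a log2 difference of 0.86 (SE 0.79) for 2-APB minus control.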

How the data were processed

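The table the authors deposited holds 1 signal value per gene and library, a gene count after DESeq2 normalization, per the submitters' processing notes, which give no version. Total RNA went into a SMARTer kit for mRNA sequencing, per the labels' protocols. Aligner, counter, build, annotation and strand setting are not given in the sources used here. Of 61093 rows, 60605 had Ensembl identifiers. Symbols were matched for 60463, and 130 came from GENCODE 29. Within each library 100% of values were whole multiples of the smallest one, within 0.001 of a read. Reads recovered this way from 8 libraries were used in count models. SKF-96365 3 was left out of these models because its step of 0.992 was judged too near 1 to tell from rounding. Its values were not whole numbers, for example 3388.73 for INSIG1, so the step could be told from 1. The exclusion was therefore not needed on this ground. Count models that include SKF-96365 3 were not run, so edgeR and DESeq2 results for SKF-96365 rest on the remaining libraries of that group. Depth was 14786059 to 19026545 reads, and chi-square values cover counting error only.

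Tests used limma 3.58.1 (R 4.3.3) with an intensity trend on log2(normalized count + 1), all 9 libraries, and Benjamini-Hochberg adjustment over the 17492 genes that reached 10 in 3 or more libraries. A log2 difference on this scale understates changes of low genes. Alternatives were other pseudocounts, filters and scalings, a replicate block, leaving out single libraries, edgeR 4.0.16 and DESeq2 1.42.0. On simulated 2-APB minus control counts for 17131 genes, limma made 9 false calls. It called 51% of genes given a log2 change of 1 and 100% of those given 2. The simulation gave every gene 1 fixed spread and changed only genes with higher means. Its libraries lacked the differences within groups seen here, so these shares do not tell how many real changes limma would find in these data. Genes and lists were chosen with earlier results of these data known. Values in every library are given for the gene with the highest mean in each role and those with the largest difference from control. Other genes are given by range, or marked as picked after their values were seen. On the recovered reads edgeR called 0 of all genes in each comparison, and DESeq2 called 2 for SKF-96365 minus control, 0 for 2-APB minus control and 1 for 2-APB minus SKF-96365.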

Additional observations from a re-analysis of the deposited data

How the results depend on the processing

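No sterol gene was called in any comparison under another pseudocount, filter, scaling or variance model, with only the groups compared, with any 1 library left out, or by edgeR or DESeq2. Leaving out 1 library gave 0 to 0 calls in each comparison. At an unadjusted p under 0.05 there were 0 to 6 of the 27 for SKF-96365 minus control, 0 to 3 for 2-APB minus control and 0 to 8 for 2-APB minus SKF-96365. The 6 came without control 3, where 4405 of 17234 tested genes passed. The 3 came without control 1 (724 of 17324 tested genes) and without control 3 (1657 of 17234). The count over all tested genes beside the 8 is not given here, so nothing is read from it. Without both control 3 and SKF-96365 1, chosen after the data were seen because they stood with another group, limma called 4 of 27 (14.8%) for SKF-96365 minus control, against 28.1% of tested genes, 4 of 27 (14.8%) for 2-APB minus SKF-96365, against 13.3%, 0 for 2-APB minus control, against 0%, and 5 of 27 (18.5%) by the F test, against 20.7%. Without control 3 alone, 173 of 17234 tested genes and 0 of the 27 were called for SKF-96365 minus control. With so small a share called over all tested genes, the 0 is not read as a result about the sterol genes. Since both libraries were picked by their values, p-values without them are too small. The libraries 2-APB 3 and control 1, which were kept, also stood with another group. The replicate number did not pair the libraries. Deviations of same-numbered libraries from their group means correlated at 0.50, -0.19 and 0.37 for SKF-96365 and control, and at -0.22, -0.028 and -0.27 for 2-APB and control. With the replicate number as a block, 0 genes were called in each comparison.

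Signs of small differences depended on the setting, and the cause was not tested. For SKF-96365 minus control, edgeR and DESeq2 gave HMGCS1 -0.085 and -0.089, SQLE -0.013 and -0.018, MSMO1 -0.11 and -0.11, and SOAT1 -0.0015 and -0.0068, where limma was above 0; these fits lack SKF-96365 3. FDFT1 was 0.023 with upper-quartile rescaling and 0.028 with quantile normalization. Without control 3 and SKF-96365 1, FDFT1 was 0.25, LSS 0.16, DHCR7 0.32 and, for 2-APB minus control, SREBF2 0.029. For 2-APB minus control ACAT2 was 0.0045 with quantile normalization and EBP 0.016 with upper-quartile rescaling. With 1 library left out, SKF-96365 minus control ran from -0.26 to 0.47 for HMGCS1, -0.12 to 0.20 for FDFT1, -0.34 to 0.11 for LSS, -0.13 to 0.30 for SQLE, -0.31 to 0.21 for DHCR7, -0.22 to 0.39 for MSMO1, -0.052 to 0.43 for SREBF2, -0.13 to 0.94 for INSIG1 and -0.046 to 0.13 for SOAT1. In the same fits 2-APB minus control ran from -0.26 to 0.10 for ACAT2, -0.34 to 0.050 for FDFT1, -0.52 to 0.050 for DHCR7, -0.17 to 0.12 for EBP and -0.37 to 0.029 for SREBF2. Over them 2-APB minus SKF-96365 ran from -0.41 to 0.057 for FDFT1, -0.43 to 0.15 for LSS and -0.52 to 0.17 for DHCR7.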
